A study of Homo sapiens with 12 samples.

Results

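The 46 genes described here encode the proteins that license DNA replication origins, start the replicative helicase and run the fork, together with enzymes of nucleotide supply and the E-type cyclins. They were listed by symbol, in a list drawn up with earlier results of these data known, and all 46 were found among the 34886 symbols of the mRNA table. All RNA came from 1 unmodified human cell line, NCI-H446, which was established from small cell lung cancer. The CAPE group was kept for 8 h with CAPE (caffeic acid phenethyl ester) at 40 µM, a compound of propolis that is known to inhibit NF-kB, and the control group received dimethyl sulfoxide (DMSO), its solvent, in an equal volume. Each group had 3 mRNA libraries, and a further 3 DMSO and 3 CAPE libraries held microRNA (miRNA). The labels do not say whether replicates were separate cultures, so the p-values rest only on the variation among these libraries, and this may be technical.

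Before S phase, the origin recognition complex, CDC6 and CDT1 load rings of MCM2 to MCM7 onto DNA, which licenses an origin. The kinase pair CDC7 and DBF4, together with cyclin-dependent kinases such as cyclin E with CDK2, then turns the loaded ring into an active helicase by bringing in CDC45 and the GINS complex. At the fork, polymerase alpha with primase starts each strand, polymerases epsilon and delta extend it, and the RFC complex loads the sliding clamp PCNA. Many of these genes are known targets of E2F transcription factors, and small cell lung cancer cells commonly lack the RB protein that restrains E2F.

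To show the control DNA that bears on these genes, promoter sequence was read from RefSeq (GRCh38.p14), which held an entry for 39 of the 46. The 250 bases before the annotated start are printed 5′ to 3′ on the strand of the gene for CDC6, DBF4 and ORC5. Among the members that passed the test without the library DMSO 3, described further on, CDC6 had the largest rise in CAPE after CCNE2, and DBF4 and ORC5 had the largest falls. CCNE2, and POLD3, which came after CDC6, are named only. The stretches of CDC6, DBF4 and ORC5 lie in turn at chr17:40287629-40287878 on the plus strand, chr7:87876243-87876492 on the plus strand and chr7:104208014-104208263 on the minus strand. Capitals mark the word CCAAT on either strand, the core of the NF-Y binding site.
CDC6: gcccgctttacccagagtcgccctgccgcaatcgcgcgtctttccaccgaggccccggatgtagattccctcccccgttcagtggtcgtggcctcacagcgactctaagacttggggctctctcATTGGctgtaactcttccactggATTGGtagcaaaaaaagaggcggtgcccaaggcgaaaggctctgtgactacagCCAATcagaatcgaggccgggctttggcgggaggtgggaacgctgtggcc
DBF4: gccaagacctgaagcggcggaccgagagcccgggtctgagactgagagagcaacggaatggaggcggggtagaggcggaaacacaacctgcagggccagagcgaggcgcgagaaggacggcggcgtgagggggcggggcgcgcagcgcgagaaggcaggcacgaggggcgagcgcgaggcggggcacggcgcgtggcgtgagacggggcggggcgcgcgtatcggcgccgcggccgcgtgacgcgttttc
ORC5: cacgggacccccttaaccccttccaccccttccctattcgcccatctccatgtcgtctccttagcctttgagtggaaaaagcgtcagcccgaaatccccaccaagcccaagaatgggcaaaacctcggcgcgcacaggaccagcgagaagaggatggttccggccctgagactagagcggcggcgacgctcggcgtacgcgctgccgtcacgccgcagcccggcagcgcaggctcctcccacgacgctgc
The CDC6 stretch held 3 such words, and the DBF4 and ORC5 stretches held none.

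A search for E2F-type sites looked for TTTCCCGC, TTTGGCGC, TTTCGCGC and TTTGCCGC on both strands, from 250 bases before to 50 bases after each start. At least 1 of these words stood in 19 of the 49 promoter entries of the members (38.8%), against 3.31% of all 35116 entries of the same length. Windows around 1 word of each of 8 members are printed with the word in capitals, 4 from genes whose counts differed between DMSO and CAPE without the library DMSO 3 (CDT1, POLA2, POLE and RFC3) and 4 from genes whose counts did not pass that test (MCM3, MCM6, MCM7, PCNA).
CDT1: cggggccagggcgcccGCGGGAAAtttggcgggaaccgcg
POLA2: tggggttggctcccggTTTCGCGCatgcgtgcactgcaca
POLE: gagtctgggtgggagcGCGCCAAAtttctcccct
RFC3: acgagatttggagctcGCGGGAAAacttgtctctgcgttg
MCM3: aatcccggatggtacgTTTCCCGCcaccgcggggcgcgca
MCM6: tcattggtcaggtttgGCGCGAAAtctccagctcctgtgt
MCM7: cacgtggggggcgacgTTTCGCGCc
PCNA: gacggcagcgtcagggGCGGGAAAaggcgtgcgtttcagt
Read in capitals, GCGGGAAA, GCGCCAAA and GCGCGAAA are the same words on the opposite strand. They are matches of letters, not measured sites.

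One control library stood apart, and it reached these genes too. In DMSO 3, 41.9% of 13595 tested genes lay 2-fold or more from the mean of DMSO 1 and DMSO 2, and so did 13 of the 46 replication genes (28.3%), 10 upward and 3 downward. The weight of DMSO 3 in a fit with library quality weights was 0.0200, against 2.02 to 2.46 for the others. Its scaling factor (TMM, the trimmed mean method of edgeR) was 0.699, against 1.07 to 1.09, while its total was not low, since the 6 libraries held 17569997 to 20917508 estimated counts. For this reason each comparison was made with all 6 libraries and again without DMSO 3.

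The deviation of DMSO 3 differed from gene to gene. CDT1, which helps load the MCM ring, had 47.0, 46.4 and 154 CPM (counts relative to the scaled library size) in DMSO 1, 2 and 3 and 54.6, 51.7 and 53.0 in CAPE 1, 2 and 3. RPA3, the smallest subunit of the protein that coats single-stranded DNA, had 23.8, 24.2 and 73.8 CPM in DMSO and 25.0, 23.4 and 26.4 in CAPE. For both genes DMSO 3 was the highest of the 6 libraries, well above all others. CCNE2, an E-type cyclin, had 35.7, 40.4 and 11.6 CPM in DMSO and 57.6, 64.9 and 62.9 in CAPE, and CDC7, the catalytic subunit of the origin-firing kinase, had 64.7, 71.1 and 27.4 CPM in DMSO and 56.8, 64.2 and 63.7 in CAPE. For CCNE2 and CDC7 DMSO 3 was the lowest library. The direction also depended on the unit: 38 of the 46 genes were lower in DMSO 3 than in DMSO 1 and 2 as TPM (a level that takes transcript length into account), and 21 of these were higher in DMSO 3 as CPM.

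**Figure D1:**
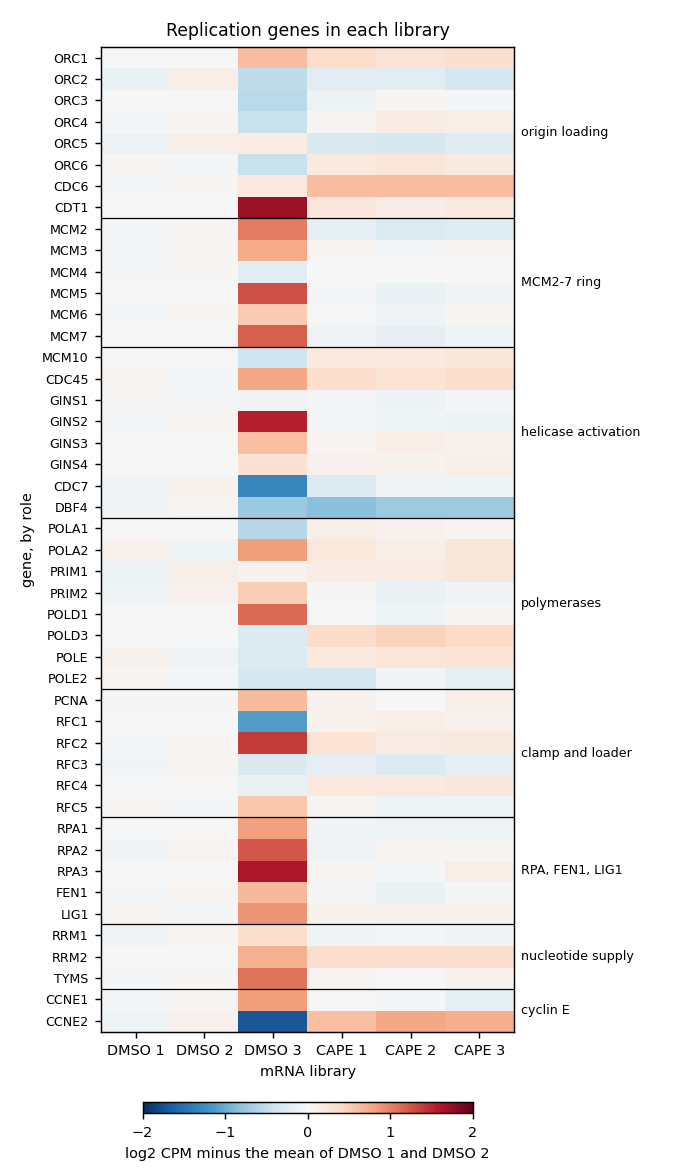
Colour shows log2 CPM of each of the 46 genes (rows, by role) in each of the 6 mRNA libraries (columns), minus the mean of DMSO 1 and DMSO 2, on a scale from -2 to 2. The DMSO 3 column departs furthest, from CDT1 and RPA3 (higher) to CCNE2 and CDC7 (lower), while the 3 CAPE columns resemble each other, with CDC6 and CCNE2 higher and DBF4 lower.

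The cell type markers were checked as well. Of 8 neuroendocrine markers, 7 had a mean below 1 CPM, and the transcription factor genes NEUROD1 and INSM1 had no counts in any DMSO library. The summed level of the 8 was 38.5 to 55.0 CPM in DMSO and 170 to 189 CPM in CAPE, nearly all of it ENO2, a glycolytic enzyme. Counts were seen for 6 of 6 fibroblast markers (summed 44.7 to 66.6 CPM in DMSO, with the lowest in DMSO 3, and 62.1 to 66.9 in CAPE) and 5 of 6 leukocyte markers (summed 24.3 to 49.9 CPM in DMSO, with the highest in DMSO 3, and 25.6 to 28.3 in CAPE). Most of the fibroblast sum was COL1A1, DCN, LUM and COL3A1. In DMSO 1, 2 and 3, COL1A2 had 0.211, 0.261 and 0 CPM and PDGFRB had 1.21, 1.88 and 1.78 CPM. The leukocyte sum was nearly all CD68, a lysosomal protein, with 23.7, 23.5 and 49.6 CPM in DMSO 1, 2 and 3, whereas PTPRC, the pan-leukocyte marker, had 0.527, 0.470 and 0.205 CPM, lowest in DMSO 3, and CD3E was at 0 counts in all 6 libraries. For 3 of 4 endothelial markers the sum was 3.21 to 4.11 CPM in DMSO and 1.97 to 3.17 in CAPE. The part of these levels in the results below was not tested. In bulk RNA, fewer cells with a transcript and less of it per cell cannot be told apart.

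With all 6 libraries, no replication gene passed an adjusted p of 0.05 in edgeR's quasi-likelihood test, against 1.95% of all genes tested (1.49% higher and 0.456% lower). At an unadjusted p below 0.05 there were 2 of 46 (4.35%), CDC6 and POLD3, both higher, against 16.1% of all genes. DESeq2 called 1 of the 46, CDC6, against 5.43% of all genes in that test. The smallest edgeR adjusted p was 0.145, for CDC6, and the median log2 fold change of CAPE against DMSO was -0.15 over the members and -0.01 over all genes, with 17 members positive and 29 negative. Every CAPE library lay above every DMSO library for 10 of the 46 members and below every DMSO library for 5. Over all 13595 genes tested, the groups did not overlap for 41.9%, so a lack of overlap was common.

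Without DMSO 3, 18 of the 46 genes passed (39.1%), against 41.2% of the 13919 genes tested. CAPE was higher for 13, beside 20.4% of all genes, and lower for 5, beside 20.8% of all genes. The overall share was thus close to the background. Changes were small: the median size of the log2 fold change was 0.0956 for the members and 0.218 for all genes, and 3 members (6.52%) passed with at least a 1.5-fold change, CCNE2, CDC6 and DBF4, against 12% of all genes. The 2 groups did not overlap for 29 members (63%), 19 with CAPE above and 10 with CAPE below, while 62.2% of all genes did not overlap, 31.5% above and 30.7% below. With length-trend offsets, meant to remove the trend of log2 CPM with transcript length in each library, the split was 7 higher and 11 lower. Over all genes it became 2227 higher and 4246 lower. These offsets also moved the median log2 fold change from 0.0035 to -0.073 over all genes and from 0.021 to -0.047 over the members. The part of that shift in the new split was not tested. The genes are taken in turn by role in what follows, and all adjusted p-values are Benjamini-Hochberg values over all genes of edgeR's test in the 5 libraries, 2 DMSO and 3 CAPE, unless 6 libraries are named.

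**Figure D2:**
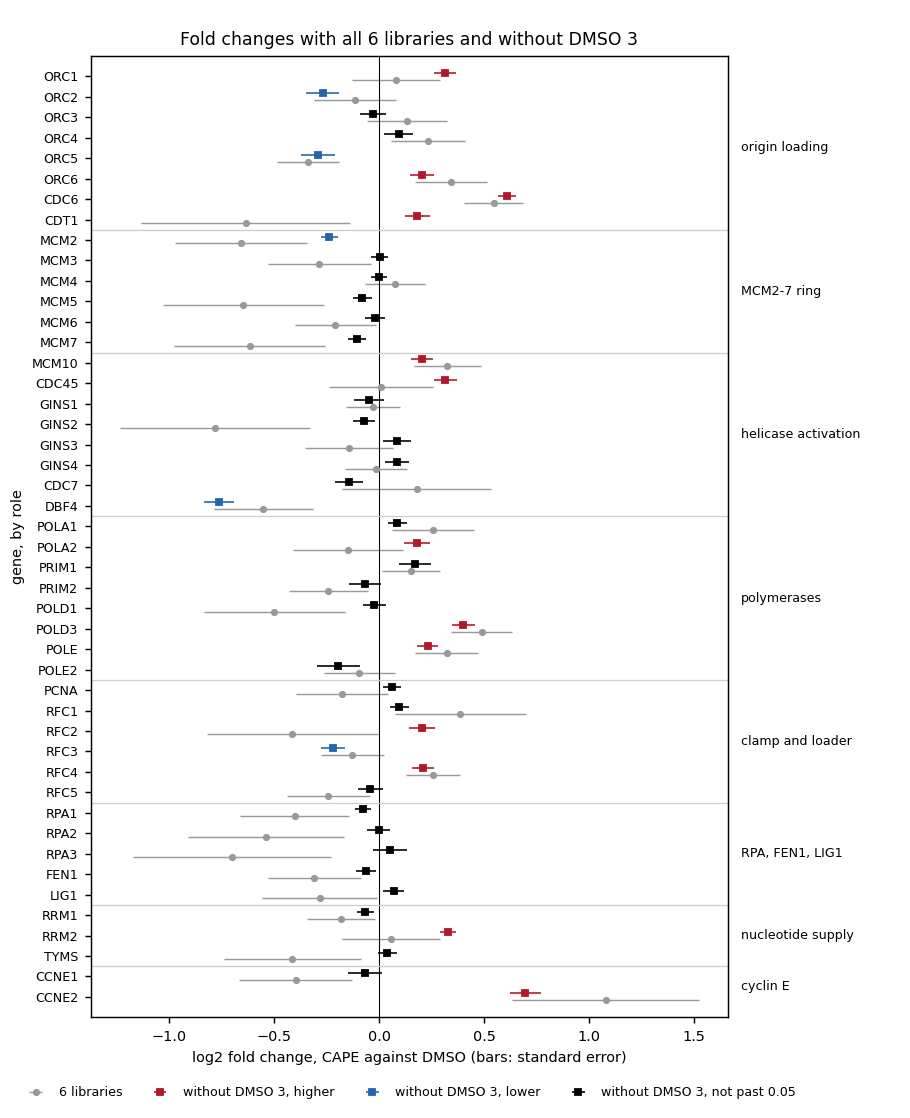
Each row is 1 gene, and the horizontal axis is the log2 fold change of CAPE against DMSO with its standard error, for all 6 libraries (grey circles) and without DMSO 3 (squares, red where higher, blue where lower, black where the adjusted p was not below 0.05). Standard errors without DMSO 3 were 0.04 to 0.10, and the largest changes were those of DBF4 at -0.76 and CCNE2 at 0.70.

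Genes of origin loading moved in both directions: without DMSO 3, 4 of 8 rose in CAPE (CDC6, ORC1, ORC6 and CDT1), 2 fell (ORC5 and ORC2), and 2 did not pass. CDC6, the ATPase that joins the origin recognition complex to bring in the MCM ring, had 130, 135 and 153 CPM in DMSO 1, 2 and 3 and 204, 203 and 203 CPM in CAPE. All 3 CAPE libraries were above all 3 DMSO libraries. The log2 fold change was 0.61 ± 0.04 (SE, 5 libraries), a 1.53-fold rise (edgeR adjusted p = 4.79e-08), and 0.55 ± 0.14 with 6 libraries (edgeR adjusted p = 0.145). CDC6 spans chr17:40287879-40304657 (GRCh38.p14).

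ORC1, the largest subunit of the origin recognition complex, had 74.0, 75.4 and 115 CPM in DMSO and 95.8, 90.3 and 92.8 CPM in CAPE. CAPE lay above DMSO 1 and 2 and below DMSO 3. Without DMSO 3 it rose by a log2 fold change of 0.31 ± 0.05 (edgeR adjusted p = 2.52e-04), and with 6 libraries the value was 0.08 ± 0.21. ORC6, its smallest subunit, had 56.7, 55.2 and 41.0 CPM in DMSO and 64.4, 66.1 and 63.5 CPM in CAPE, higher in every CAPE library than in any DMSO library. Its log2 fold change was 0.20 ± 0.06 (edgeR adjusted p = 0.00959) and 0.34 ± 0.17 with 6 libraries. When DMSO 2 was left out as well as DMSO 3, which left DMSO 1 as the only control, it was 0.18, given as a size only. With length-trend offsets it no longer passed.

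CDT1 reversed between the fits. Its values, given above, put CAPE above DMSO 1 and 2 but far below DMSO 3, so that the log2 fold change was 0.18 ± 0.06 without DMSO 3 (edgeR adjusted p = 0.0255) and -0.64 ± 0.50 with it. The call without DMSO 3 was also lost when DMSO 1, DMSO 2, CAPE 1 or CAPE 3 was left out in turn. DESeq2, length-trend offsets and log2(TPM + 1) each lost it too.

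ORC5, another origin recognition subunit, had 32.7, 38.8 and 39.7 CPM in DMSO and 29.2, 28.4 and 30.3 CPM in CAPE. Every CAPE library was below every DMSO library. Its log2 fold change was -0.29 ± 0.08 without DMSO 3 (edgeR adjusted p = 0.0103) and -0.34 ± 0.15 with 6 libraries. On log2(TPM + 1) it no longer passed. ORC2, a core subunit of the complex, had 39.9, 47.6 and 30.8 CPM in DMSO and 37.3, 37.3 and 34.7 CPM in CAPE, which overlap once DMSO 3 is included. Without DMSO 3 it fell by 0.27 on the log2 scale, with an SE of 0.08 (edgeR adjusted p = 0.0143). This call was also lost without CAPE 3, on log2(TPM + 1) and with the replicate number as a block. ORC3 and ORC4 did not pass, at -0.03 and 0.09. For ORC2 and ORC5, and for RFC3 described further on, DMSO 2 was the higher of the 2 remaining controls, and without DMSO 2 these 3 falls no longer passed, which left 2 lower genes of 5.

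Of the 6 genes of the MCM ring, once DMSO 3 was set aside, 1 fell, MCM2, none rose, and 5 did not pass, with log2 fold changes between -0.10 and 0.00. MCM2 had 393, 405 and 808 CPM in DMSO and 350, 330 and 338 CPM in CAPE. CAPE was below every DMSO library, and DMSO 3 was higher than all others. The log2 fold change was -0.24 ± 0.04 without DMSO 3, a 1.18-fold fall (edgeR adjusted p = 2.84e-04), and -0.66 ± 0.31 with 6 libraries (edgeR adjusted p = 0.344). MCM7 had 342, 345 and 787 CPM in DMSO and 329, 307 and 325 CPM in CAPE, again without overlap, but its log2 fold change of -0.10 ± 0.04 missed the threshold (edgeR adjusted p = 0.0560). In other fits without DMSO 3, MCM7 passed as lower with DESeq2 (DESeq2 adjusted p = 0.0476). It also passed with length-trend offsets (edgeR adjusted p = 0.0051) and without CAPE 1 (edgeR adjusted p = 0.0482). MCM5 passed as lower with length-trend offsets (edgeR adjusted p = 0.0255). MCM3, MCM4, MCM5 and MCM6 stood at 0.00, 0.00, -0.08 and -0.02, each with a standard error of 0.04 to 0.05. A p that misses the threshold does not show that these levels were equal.

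Among the 8 genes that turn the loaded ring into a helicase, DBF4 fell, CDC45 and MCM10 rose, and 5 did not pass. DBF4, the regulatory subunit of the CDC7 kinase, had 43.8, 47.1 and 27.0 CPM in DMSO and 25.4, 27.6 and 27.6 CPM in CAPE. As CPM, CAPE was below DMSO 1 and 2, and DMSO 3 was within the CAPE range. As TPM, DMSO 3 was below CAPE, at 8.26 against 16.5, 24.4 and 18.8 in CAPE 1, 2 and 3. On log2(TPM + 1) with 6 libraries the log2 fold change was -0.0085, where the median over all genes was 0.305. From the counts, the log2 fold change without DMSO 3 was -0.76 ± 0.07, a 1.70-fold fall (edgeR adjusted p = 8.41e-07) and the largest fall among the members. With 6 libraries it was -0.55 ± 0.24 (edgeR adjusted p = 0.321). DBF4 spans chr7:87876493-87909553 (GRCh38.p14). CDC7, its catalytic partner, with the values given above, did not pass, at -0.14 ± 0.07.

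CDC45, which travels with the MCM ring and GINS as the active helicase, had 66.0, 63.1 and 111 CPM in DMSO and 81.4, 78.1 and 82.0 CPM in CAPE. CAPE lay above DMSO 1 and 2 and below DMSO 3. Its log2 fold change was 0.32 ± 0.06 without DMSO 3 (edgeR adjusted p = 3.42e-04) and 0.01 ± 0.25 with it. MCM10, a fork protein needed to activate the helicase, had 68.7, 67.7 and 52.0 CPM in DMSO and 77.8, 78.4 and 80.0 CPM in CAPE, above every DMSO library, with a log2 fold change of 0.20 ± 0.05 (edgeR adjusted p = 0.00643). The MCM10 call was lost with length-trend offsets and on log2(TPM + 1). The 4 GINS genes did not pass, with log2 fold changes from -0.07 for GINS2 to 0.09 for GINS3 and GINS4.

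Of 8 polymerase and primase genes, 3 rose (POLD3, POLE and POLA2), none fell and 5 did not pass. POLD3, an accessory subunit of polymerase delta, had 63.5, 64.4 and 53.1 CPM in DMSO and 82.2, 88.1 and 83.7 CPM in CAPE. All CAPE libraries were above all DMSO libraries. The log2 fold change was 0.40 ± 0.06 (edgeR adjusted p = 4.15e-05), and 0.49 ± 0.15 with 6 libraries (edgeR adjusted p = 0.196). POLE, the catalytic subunit of the leading-strand polymerase, had 160, 147 and 126 CPM in DMSO and 176, 181 and 184 CPM in CAPE. These did not overlap either, and the log2 fold change was 0.23 ± 0.05 (edgeR adjusted p = 0.00148). The POLE call was lost on log2(TPM + 1).

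POLA2, the B subunit of polymerase alpha, had 83.1, 74.4 and 140 CPM in DMSO and 91.1, 85.0 and 92.0 CPM in CAPE. CAPE was above DMSO 1 and 2 and below DMSO 3, and its log2 fold change was 0.18 ± 0.06 without DMSO 3 (edgeR adjusted p = 0.0276) and -0.15 ± 0.26 with it. The call was lost without DMSO 2, CAPE 1 or CAPE 3. It was also lost with DESeq2, with length-trend offsets and on log2(TPM + 1). POLA1, PRIM1, PRIM2, POLD1 and POLE2 did not pass, with log2 fold changes from -0.19 (POLE2) to 0.17 (PRIM1).

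In the clamp and its loader, RFC4 and RFC2 rose, RFC3 fell, and PCNA, RFC1 and RFC5 did not pass. RFC4, a small subunit of the loader, had 68.1, 67.5 and 61.7 CPM in DMSO and 78.8, 77.7 and 79.3 CPM in CAPE, with no overlap, and a log2 fold change of 0.21 ± 0.05 (edgeR adjusted p = 0.00515). RFC2 had 57.0, 60.7 and 154 CPM in DMSO and 71.5, 65.7 and 66.9 CPM in CAPE, so CAPE was above DMSO 1 and 2 and far below DMSO 3. Its log2 fold change was 0.20 ± 0.06 without DMSO 3 (edgeR adjusted p = 0.0151) and -0.41 ± 0.41 with it, and the call was lost without DMSO 1 or CAPE 1. RFC3 had 74.9, 81.2 and 64.0 CPM in DMSO and 68.0, 64.9 and 68.6 CPM in CAPE, where DMSO 3 was the lowest of all. Its log2 fold change without DMSO 3 was -0.22 ± 0.06 (edgeR adjusted p = 0.00693). The rises of RFC4 and RFC2 did not pass with length-trend offsets, and the fall of RFC3 did not pass on log2(TPM + 1) or without DMSO 2. PCNA, the clamp itself, had 243, 250 and 382 CPM in DMSO and 259, 246 and 268 CPM in CAPE, which overlap, with a log2 fold change of 0.06 ± 0.04.

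None of the 5 genes for single-strand binding and Okazaki fragment maturation passed. The smallest p was that of RPA1, the large subunit of replication protein A, with 261, 262 and 462 CPM in DMSO and 251, 248 and 247 CPM in CAPE. Each CAPE library was below each DMSO library, by a log2 fold change of -0.08 ± 0.04 (edgeR adjusted p = 0.132). RPA2, RPA3, the flap nuclease FEN1 and the ligase LIG1 were between -0.06 and 0.07. All 5 were higher in DMSO 3 than in DMSO 1 and 2, and all 5 had a negative log2 fold change with 6 libraries.

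Nucleotide supply showed 1 rise among 3 genes. RRM2, the small subunit of ribonucleotide reductase, had 268, 268 and 436 CPM in DMSO and 337, 339 and 335 CPM in CAPE. DMSO 1 and 2 were the lowest, the CAPE libraries were close together, and DMSO 3 was the highest. The log2 fold change was 0.33 ± 0.04 (edgeR adjusted p = 8.08e-06) without DMSO 3 and 0.06 ± 0.23 with it. RRM1, the large subunit, and TYMS, which makes thymidylate, did not pass, at -0.07 and 0.04.

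Of the E-type cyclins, CCNE2 rose and CCNE1 did not pass. The CCNE2 values given above put every CAPE library above every DMSO library, with DMSO 3 the lowest. The log2 fold change was 0.70 ± 0.07 without DMSO 3, a 1.62-fold rise (edgeR adjusted p = 3.12e-06), and 1.08 ± 0.45 with 6 libraries (edgeR adjusted p = 0.311). CCNE1 had 26.2, 26.8 and 47.5 CPM in DMSO and 26.6, 26.2 and 23.4 CPM in CAPE, which overlap, with a log2 fold change of -0.07 ± 0.08.

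Set side by side without DMSO 3, the subgroups had these medians of the log2 fold change: 0.14 for origin loading, -0.05 for the MCM ring, 0.02 for helicase activation, 0.13 for the polymerases, 0.08 for the clamp and its loader, -0.00 for strand binding and maturation, 0.04 for nucleotide supply and 0.32 for the E-type cyclins. The median over all genes was 0.00. With 6 libraries the same medians were 0.11, -0.45, -0.02, 0.03, -0.15, -0.40, -0.18 and 0.34, so the MCM ring and the strand-binding group were lowest. In DMSO 3 those groups were also the furthest above DMSO 1 and 2, with median log2 deviations of 0.88 and 0.88. The difference between subgroups was not tested. The rank correlation between transcript length and the deviation of DMSO 3 was -0.146 over the 46 genes and -0.456 over 13595 genes, given as descriptions across genes, which share these libraries and are not independent.

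The sign of the fold change differed between the 2 fits for 12 of the 46 genes (26.1%), against 23.2% of all genes. Of the 18 genes that passed without DMSO 3, CDT1, POLA2 and RFC2 were among these 12. The counts over alternative analyses that follow were made for the members only. Whether the members kept their calls more often than all genes did was not tested. In the 12 alternative analyses of the 5 libraries all 18 kept their sign, and 8 passed in every one: CCNE2, CDC45, CDC6, ORC1, POLD3 and RRM2 higher, and DBF4 and MCM2 lower.

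In 4 of 5 functional pairs, 1 gene passed without DMSO 3 while its partner did not, as the plot of partner genes shows. The pairs were chosen after their values were seen, and the difference between partners was not tested. The ratio of CCNE2 to CCNE1, as TPM, was 0.923 and 1.04 in DMSO 1 and 2, 0.192 in DMSO 3, and 1.62, 1.97 and 2.12 in CAPE. Without DMSO 3 the balance of the E-type cyclins thus moved from near equal to CCNE2 above CCNE1. The ratio of DBF4 to CDC7 was 0.782 and 0.813 in DMSO 1 and 2, 1.16 in DMSO 3, and 0.502, 0.677 and 0.549 in CAPE. RRM2 to RRM1 was 0.845 and 0.822 in DMSO 1 and 2, 0.909 in DMSO 3, and 1.10, 1.15 and 1.02 in CAPE, above every DMSO library. CDC6 to CDT1 was 1.97 and 2.02 in DMSO 1 and 2, 0.543 in DMSO 3, and 2.69, 2.42 and 2.76 in CAPE.

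**Figure D3:**
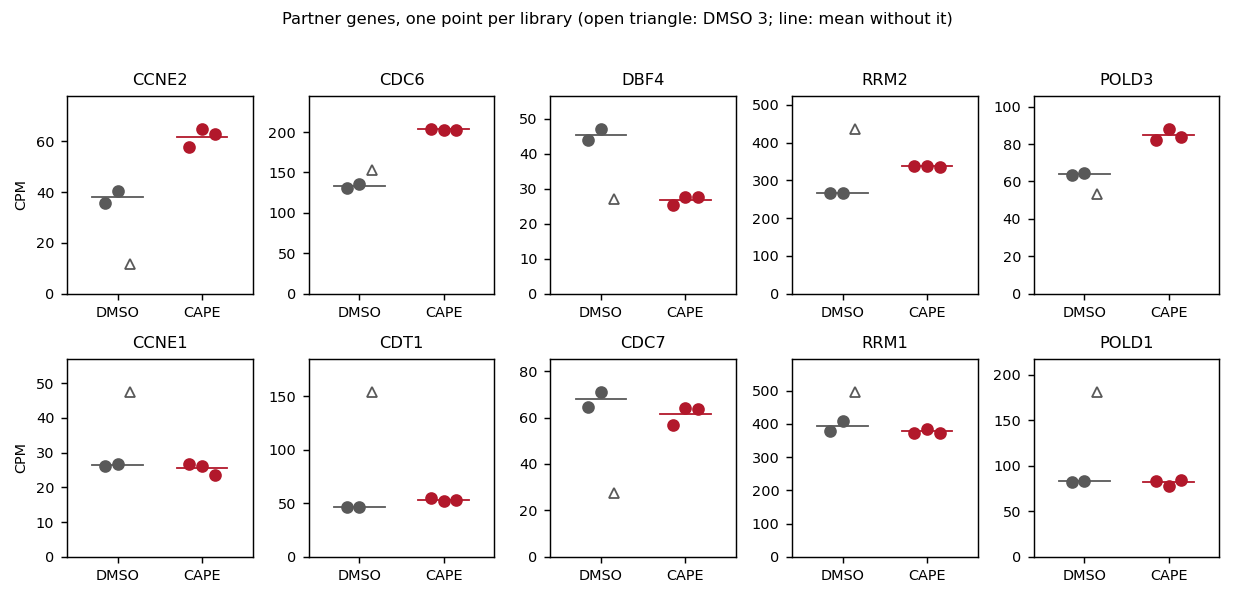
CPM of 5 pairs of partner genes in each mRNA library, with the gene that passed without DMSO 3 in the upper row and its partner below. Each point is 1 library, open triangles are DMSO 3, and lines are means of the other libraries. CDT1, in the lower row, also passed, and DMSO 3 lies outside the range of DMSO 1 and 2 in all 10 panels.

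As levels per transcript length, the 46 genes spanned from 17.4 TPM for GINS1 to 347 TPM for PCNA as a mean of the 5 libraries without DMSO 3, with a median of 65.4 TPM. The MCM ring was among the highest groups, at 251 TPM for MCM4, 204 for MCM3, 196 for MCM7, 168 for MCM2, 126 for MCM5 and 88.6 for MCM6, although the ring holds its subunits in equal number. MCM3 (198 to 209 TPM) and MCM7 (182 to 204 TPM) overlap between libraries, and MCM6 (84.8 to 91.8 TPM) was below the others in all 5. RRM1, TYMS and RRM2 were close, at 210, 208 and 207 TPM. In the clamp and its loader, PCNA at 347 TPM stood above RFC4 at 145 TPM, RFC1, RFC5 and RFC2 had 73.1 to 79.3 TPM, and RFC3 was lower in each of these 5 libraries, at 45.7 to 56.6 TPM. Among the 8 genes of origin loading CDC6 was highest at 95.6 TPM and ORC2 lowest at 22.4 TPM.

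**Figure D4:**
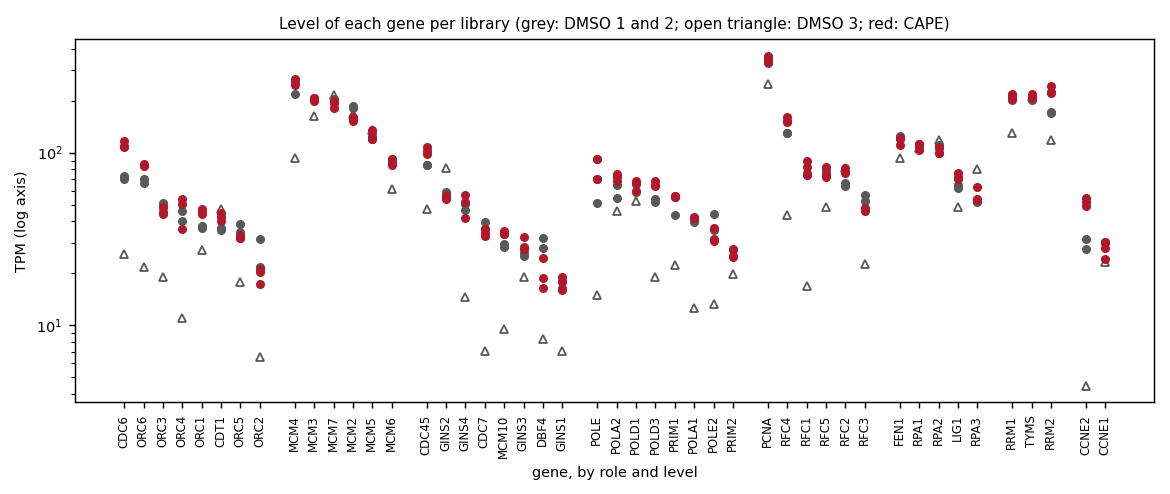
TPM of each gene on a log axis, by role and then by mean level, with 1 point per library (grey for DMSO 1 and 2, open triangles for DMSO 3, red for CAPE). PCNA is highest and GINS1 lowest in the 5-library mean, and the DMSO 3 triangle is below DMSO 1 and 2 for most genes.

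Other genes of replication, from a list that does not overlap with the members, were measured for 45 genes. None passed with 6 libraries, against 1.95% of all genes tested. There 7 of 45 had an unadjusted edgeR p below 0.05, 2 higher and 5 lower, against 16.1% of all genes. DESeq2 called 1 gene higher, against 5.43% of all genes in that test. With 6 libraries the groups did not overlap for 7 genes with CAPE above and 12 with CAPE below, against 41.9% of all genes. Without DMSO 3, 10 rose and 10 fell, against 20.4% and 20.8% of all genes, which is 20 of 45 against 41.2%, a share near the background. DTL, the adaptor that sends CDT1 for destruction, had 127, 141 and 136 CPM in DMSO and 190, 190 and 197 CPM in CAPE, with no overlap and little deviation of DMSO 3. Its log2 fold change was 0.51 ± 0.05 (edgeR adjusted p = 1.74e-06), and 0.51 ± 0.13 with 6 libraries (edgeR adjusted p = 0.150).

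TK1, the thymidine kinase of S phase, had 86.9, 84.5 and 355 CPM in DMSO and 125, 109 and 116 CPM in CAPE, so that its log2 fold change was 0.44 ± 0.06 without DMSO 3 (edgeR adjusted p = 3.59e-05) and -0.59 ± 0.59 with it. RECQL4, a helicase of replication initiation, had 51.6, 46.3 and 63.9 CPM in DMSO and 65.2, 63.6 and 60.5 CPM in CAPE, and its log2 fold change was 0.36 ± 0.07 (edgeR adjusted p = 4.49e-04). DBF4B, a second activator of CDC7, had 45.0, 41.1 and 35.6 CPM in DMSO and 30.6, 29.9 and 29.7 CPM in CAPE. It fell without overlap, like DBF4 itself without DMSO 3, by 0.52 on the log2 scale, with an SE of 0.07 (edgeR adjusted p = 2.65e-05). ASF1A, a histone chaperone, had 26.6, 29.4 and 24.3 CPM in DMSO and 19.2, 18.9 and 19.7 CPM in CAPE, a log2 fold change of -0.54 ± 0.08 (edgeR adjusted p = 1.02e-04). DCTPP1, which clears modified nucleotides, had 68.1, 63.9 and 245 CPM in DMSO and 50.6, 48.0 and 45.4 CPM in CAPE, a log2 fold change of -0.46 ± 0.06 without DMSO 3 (edgeR adjusted p = 4.00e-05) and -1.39 ± 0.55 with it (edgeR adjusted p = 0.303). GMNN, which encodes geminin, the inhibitor of CDT1, was among the genes that fell, at -0.35 ± 0.06 (edgeR adjusted p = 2.83e-04).

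MCM7 also hosts miRNAs. miR-106b, miR-93 and miR-25 lie within the span of MCM7 (chr7:100092728-100101397, minus strand, GRCh38.p14). Their mature sequences from RefSeq are shown to set them beside their host, with the seed, bases 2 to 8, in capitals.
miR-106b-5p: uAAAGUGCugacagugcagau
miR-93-5p: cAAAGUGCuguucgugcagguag
miR-25-3p: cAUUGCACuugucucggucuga
miR-106b-3p: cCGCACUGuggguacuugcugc
miR-106b-5p and miR-93-5p share the seed AAAGUGC, which miR-25-3p does not have. In the miRNA libraries, miR-93-5p averaged 2248 ± 199 CPM with DMSO and 2329 ± 77.7 CPM with CAPE, and miR-25-3p averaged 2203 ± 194 and 2329 ± 128 CPM (SD, n = 3 each). These arms overlap between groups. miR-106b-5p averaged 593 ± 133 CPM with DMSO and 667 ± 64.4 CPM with CAPE, also overlapping. miR-106b-3p averaged 932 ± 24.3 and 826 ± 65.9 CPM (SD, n = 3 each), where each CAPE library was below each DMSO library, as groups did not overlap for 30.4% of all miRNAs.

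None of the 6 arms passed, against 11.8% of the 527 miRNAs tested (7.4% higher and 4.36% lower). The log2 fold changes were 0.17 for miR-106b-5p (edgeR adjusted p = 0.602), -0.17 for miR-106b-3p (edgeR adjusted p = 0.408), 0.05 for miR-93-5p, 0.08 for miR-25-3p, 0.01 for miR-25-5p and -0.01 for miR-93-3p. At an unadjusted p below 0.05 there were 0 of 6, and DESeq2 called 0 of 6, against 8.89% of all miRNAs in that test. Without the miRNA library DMSO 3, miR-106b-5p passed at 0.29 (edgeR adjusted p = 0.0356) and miR-106b-3p at -0.26 (edgeR adjusted p = 0.0472), 2 of 6 arms, while 23.9% of all miRNAs passed in that fit. The miRNA and mRNA libraries DMSO 3 are separate libraries of the same sample name. The labels do not say whether both came from the same culture.

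Promoter words and calls can be compared for the members with a RefSeq entry. An E2F-type word was found for 4 of 11 members that rose, 2 of 5 that fell and 13 of 23 that did not pass. CCAAT, on either strand, stood in 53.1% of the member entries and 34.61% of all entries, and for 7 of 11 members that rose, 1 of 5 that fell and 13 of 23 that did not pass. TTTGAA, a word of the cell cycle homology region found in promoters of mitotic genes, stood in 4.1% of member entries and 15.16% of all entries. A word that is missing says only that these letters are not in this window. In the map of E2F-type words, those of CDC6 and MCM2 start just after the annotated start, at positions 8 and 3, and those of MCM6 lie in 2 overlapping pairs.

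**Figure D5:**
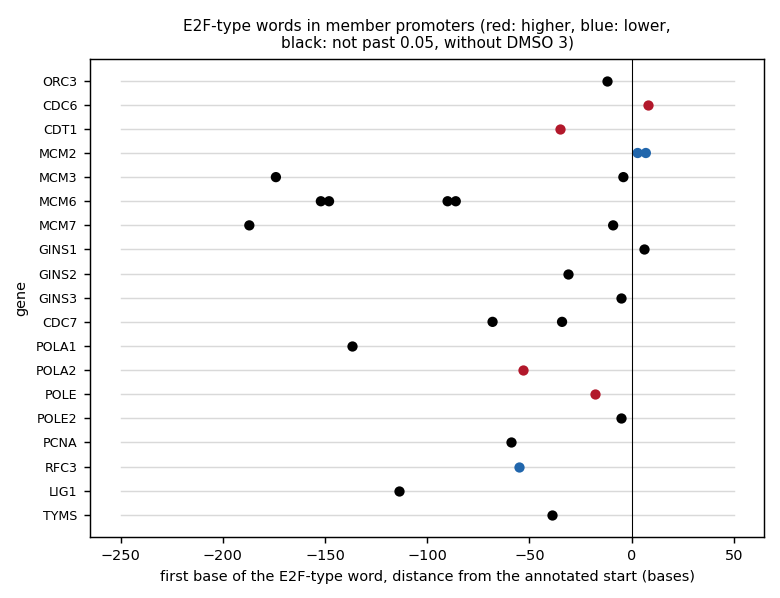
Position of each E2F-type word in the promoters of the 19 members that have one (rows), as the distance in bases of its first base from the annotated start, over the window searched (grey lines, 250 bases before to 50 after). Red marks members that rose, blue those that fell and black those that did not pass without DMSO 3, and the words furthest before the start, from CDC7 at -68 to MCM7 at -187, are all black.

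Some members overlap a neighbouring gene, and whether reads of the neighbour entered their values was not tested. Of the 46 members, 12 overlap another listed gene in RefSeq, among them CCNE2 with INTS8 and NDUFAF6, ORC1 with PRPF38A, TYMS with ENOSF1, GINS2 with GSE1, MCM7 with AP4M1 and RPA3 with UMAD1. The strand setting of the counting is not given in the sources used here, so for these genes reads of the neighbour could be included.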

How the data were processed

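Messenger RNA was taken from 3 DMSO and 3 CAPE libraries, and miRNA from another 3 and 3. Per the submitters' processing notes, bcl2fastq, kallisto 0.46.1 and GRCh38 were used. The deposited mRNA values are kallisto estimated counts (each an expected count) per gene symbol, already whole numbers, per the submitters' processing notes and the values. TPM per gene, a second unit, was deposited by the authors too. The deposited miRNA values are raw counts per mature name. For the annotation release, the summing of transcripts and the miRNA aligner, the answer is not given in the sources used here. Among miRNA entries 232 repeated a name, and per name the entry with most counts stayed.

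Counts were filtered with filterByExpr, scaled by TMM and compared with edgeR's quasi-likelihood F test (edgeR 4.0.16, R 4.3.3), with Benjamini-Hochberg adjustment over all features and a threshold of 0.05. CPM use the scaled sizes of 6 libraries, log2 CPM a prior count of 2, and the SE is the log2 fold change divided by the square root of F. Totals were 17569997 to 20917508 counts in mRNA and 4637576 to 8933025 in miRNA libraries, and the lowest count of a member was 169. Alternatives were RLE factors, DESeq2 1.42.0, no filter, a replicate block, voom with quality weights (limma 3.58.1), loess offsets for transcript length (span 0.3), limma on log2(TPM + 1) and leaving out each library.

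Values per library are given, by role, for up to 3 passing genes per direction with the smallest p without DMSO 3 (or the smallest p where none passed), for the 2 largest deviations of DMSO 3 each way, and for MCM7 and its miRNAs. For other replication genes up to 3 per direction are given. CCNE1, PCNA and GMNN were added after their values were seen. Promoters are those of the 2 largest rises and 2 largest falls outside chromosome 8, of which POLD3 is named only, and the 8 windows with an E2F-type word were picked after the calls were seen. Members and lists were chosen with earlier results of these data known. The members without a promoter entry were MCM4, MCM5, GINS4, POLD3, RPA2, RPA3 and CCNE2. RNASEH2A and SAMHD1, of the other replication genes, were not analysed here. Some items of the marker lists are not reported here.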

Additional observations from a re-analysis of the deposited data

How the results depend on the processing

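With 6 libraries, members called went from 0 higher and 0 lower to 1 higher with DESeq2 (529 higher and 327 lower of all genes) and to 12 higher and 5 lower with voom quality weights (2915 and 2677 of all genes), and leaving out each library gave 0 to 13 higher and 0 to 5 lower, the most without DMSO replicate 3. The other replication genes went from 0 and 0 to 1 higher with DESeq2, to 8 higher and 10 lower with quality weights, and to 0 to 10 higher and 0 to 10 lower when each library was left out. Without DMSO 3, the 13 higher and 5 lower members became 7 and 11 with length-trend offsets (2227 and 4246 of all genes) and 9 and 2 with limma on log2(TPM + 1) (1655 and 1391 of all genes), and leaving out each further library gave 10 to 13 higher and 2 to 6 lower. The 10 higher other genes became 5 with either of these settings. The miRNA arms gave 0 to 1 higher and 0 to 1 lower when each library was left out, the 1 and 1 without miRNA DMSO replicate 3. The log2(TPM + 1) scale moved the median of all genes with 6 libraries to 0.305. Without DMSO 3, length-trend offsets moved that median from 0.0035 to -0.073. Same-numbered mRNA samples had correlated deviations of -0.194, 0.140 and -0.00853, and not every sample correlated best with its own number. The control deviations were taken from a mean that included DMSO 3, so these values cannot tell whether the numbers mark pairs. The main fits used no pairs. With the replicate number as a block and 6 libraries, 0 members passed, but so did 0 of all 13595 genes. Without DMSO 3 the block gave 13 higher and 5 lower members (2469 and 2556 of all genes), with ORC2 lost and CDC7 gained. There CAPE 3 had no control of its number, so it added nothing to the fold change.

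Some log2 fold changes changed sign. With 6 libraries, CDT1 became 0.18 with quality weights and 0.10 on TPM, POLA2 0.18 and 0.39, and RFC2 0.20 and 0.14, and the ranges over left-out libraries were -0.93 to 0.18, -0.33 to 0.18 and -0.67 to 0.20. Without DMSO 3 the reversals were of values near 0. MCM3 became -0.0039 with DESeq2, -0.0035 with no filter, -0.0041 with the replicate block and -0.062 with length offsets, and MCM4 had -0.0061, -0.0057, -0.00049 and -0.056 there. On TPM, MCM5 became 0.020, GINS1 0.031, POLD1 0.048, RPA1 0.0020 and RRM1 0.038. With length offsets PCNA became -0.020, RPA3 -0.037 and TYMS -0.037. RPA2 became 0.00014 with RLE factors and 0.0033 with quality weights. For miRNAs, with no filter miR-93-5p became -0.035, miR-25-3p -0.0076 and miR-25-5p -0.077, and miR-25-5p had -0.029 with RLE factors and -0.035 with DESeq2. Leaving out each library gave ranges of -0.062 to 0.0064 for ORC3, -0.019 to 0.030 for MCM3, -0.022 to 0.019 for MCM4, -0.069 to 0.026 for MCM6, -0.15 to 0.020 for PRIM2, -0.045 to 0.014 for POLD1, -0.066 to 0.061 for RPA2, -0.056 to 0.090 for miR-93-5p, -0.14 to 0.060 for miR-93-3p, -0.061 to 0.12 for miR-25-3p and -0.081 to 0.060 for miR-25-5p. Where the setting is not a left-out library or another unit, the cause was not tested.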
